A study of Mus musculus with 8 samples.

Results

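The genes described here build and modify fatty acids: Acly, Acss2, Acaca and Fasn of cytosolic synthesis, the elongases Elovl6 and Elovl5, the stearoyl-CoA desaturases Scd1 and Scd2, and the fatty acid desaturases Fads1 and Fads2. They were chosen by gene symbol, and all 10 were found among the 41444 genes listed. RNA-seq had been made from wild-type (WT) macrophages of C57BL/6 mice, grown from bone marrow in serum-containing medium with the growth factor M-CSF, which both groups received. There were 4 libraries of cells given vehicle and 4 of cells given 6 nM SLIT2 for 16 hours. SLIT2 is a secreted ligand of ROBO receptors, and the comparison asks how it changes transcription in these cells. The sources used here do not give the age of the mice, the make-up of the vehicle or whether replicates came from separate animals or cultures. The p-values therefore measure only how far these samples vary, and that variation may be technical.

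In background, cells make palmitate in the cytosol from acetyl-CoA, which ATP citrate lyase (Acly) releases from citrate and acetyl-CoA synthetase (Acss2) makes from acetate. Acetyl-CoA carboxylase (Acaca) makes malonyl-CoA, and fatty acid synthase (Fasn) joins these units into palmitate. Elovl6 then lengthens palmitate to stearate, Scd enzymes place the double bond that gives oleate and palmitoleate, and Fads2, Elovl5 and Fads1 act in turn on dietary polyunsaturated fatty acids to give arachidonate and related products. The transcription factor SREBP-1c, together with the oxysterol receptors LXR alpha and beta, is known to drive many of these genes, and macrophages use the products for membranes and lipid mediators.

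Promoter letters are shown for a pair of members that rose (Fasn and Elovl6) and for one that did not pass the test (Acss2). They are the 250 bases before the start of the gene in the RefSeq table (GRCm38.p6), written along the gene's own strand, with capitals at each CCAAT (the letters bound by NF-Y) and each GGGCGG (a GC box bound by Sp1) on either strand.
Fasn, chr11:120824548-120824797, minus strand: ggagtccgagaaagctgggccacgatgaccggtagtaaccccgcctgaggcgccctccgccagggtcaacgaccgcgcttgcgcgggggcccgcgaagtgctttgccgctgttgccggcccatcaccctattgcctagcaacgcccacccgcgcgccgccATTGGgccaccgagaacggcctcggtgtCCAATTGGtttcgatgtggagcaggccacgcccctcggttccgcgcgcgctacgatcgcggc
Elovl6, chr3:129532136-129532385, plus strand: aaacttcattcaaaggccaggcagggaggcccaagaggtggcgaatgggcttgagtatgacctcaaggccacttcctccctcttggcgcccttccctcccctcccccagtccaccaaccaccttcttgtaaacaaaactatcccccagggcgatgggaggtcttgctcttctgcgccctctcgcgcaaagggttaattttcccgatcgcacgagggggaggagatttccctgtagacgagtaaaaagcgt
Acss2, chr2:155517793-155518042, plus strand: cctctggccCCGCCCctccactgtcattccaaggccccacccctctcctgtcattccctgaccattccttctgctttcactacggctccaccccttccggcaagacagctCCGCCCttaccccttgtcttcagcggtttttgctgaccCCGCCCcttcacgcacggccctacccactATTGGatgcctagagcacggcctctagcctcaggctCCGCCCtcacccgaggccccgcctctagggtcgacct
The Fasn window holds 3 matches to CCAAT, at 90 to 86, 62 to 58 and 59 to 55 bases before the start, of which the last 2 overlap on opposite strands. Elovl6 holds neither motif, and Acss2 holds 1 CCAAT and 4 GGGCGG. Windows follow RefSeq starts, which can differ from the gene starts of GENCODE M21 used for coordinates here. The Acaca window lies inside the gene, and the Fads2 window (10101504 to 10101753) nearly all inside it, its GGGCGG included. Those of Elovl6 and Acss2 run past the gene start (129532355 and 155517948). Of the 7 members with a window in that table, CCAAT was in 3 (Fasn, Elovl5 and Acss2) and GGGCGG in 3 (Acly, Acss2 and Fads2). Over all 32851 windows of this length the shares were 33.8% and 32.7%. The E-box CACGTG was in 1 of 7 (Elovl5) and in 6.02% of all windows. The sterol regulatory element searched as TCACNCCAC was in 0 of 7 and in 1.05% of all windows, and the LXR element (a DR4 direct repeat) was in 0 of 7. The LXR element, searched as exact letters, was in only 5 of the 32851 windows (0.0152%). At such low shares, 0 of 7 for the sterol and LXR elements cannot tell these windows from others. No conclusion on SREBP or LXR sites is drawn from those counts. Both strands were searched, and a match is a description of the letters only. Scd1, Scd2 and Fads1 are named only.

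Members that rose with SLIT2 were Fasn, Scd2 and Elovl6. Each gene was tested with limma on regularized-log (rlog) values, which are library-size corrected and on a log2 scale, and passed at a Benjamini-Hochberg adjusted p under 0.05 over the 11851 genes whose mean rlog was 4 or more, which all 10 members reached. Of the members 3 were higher and 0 lower, where 6.76% of all genes tested were called higher and 6.58% lower (13.3% in either direction). With duplicates averaged and the replicate pair as a block, which counts replicates 1 and 2 as one sample and 3 and 4 as another, 2 were higher (Elovl6 and Scd2). Of the 11851 genes tested, 373 were called higher and 315 lower in that fit, which has only 4 values per gene. With the replicate number as a block, which takes out what same-numbered libraries share, 8 were higher and 0 lower, where 16.6% of all genes tested were called higher and 16.4% lower (33.0% in either direction). The SLIT2 values lay wholly above the vehicle values for 4 members (Fasn, Scd2, Elovl6 and Elovl5), as they did for 10.6% of all genes tested, with 9.99% wholly below (20.5% not overlapping in either direction). The median difference was 0.44 over the members and 0.0025 over all genes tested, and all 10 members had a positive difference, as 50.9% of all genes did.

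**Figure D1:**
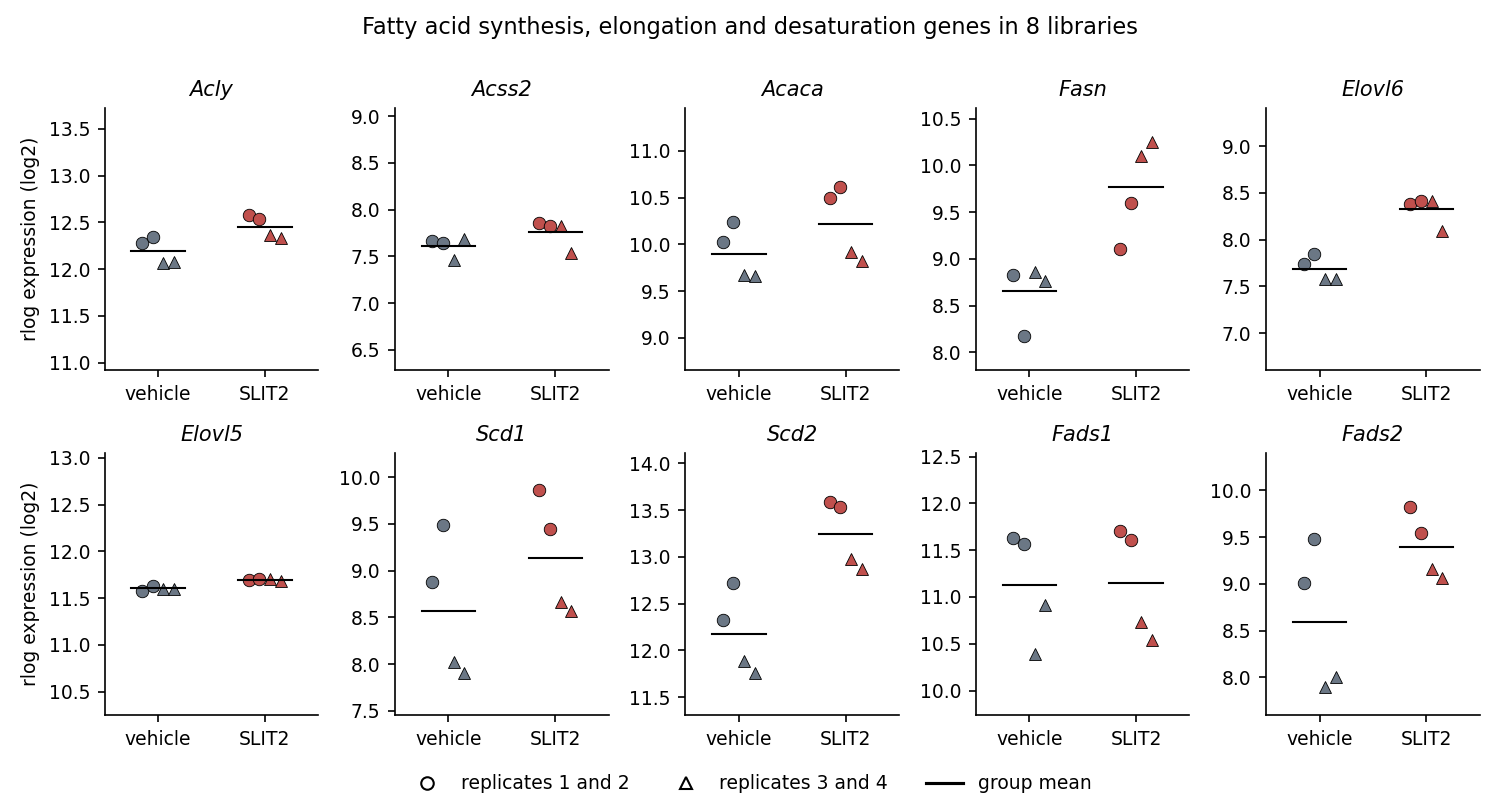
Rlog expression (log2 scale) of the 10 genes in each library, vehicle in grey and SLIT2 in red, with circles for replicates 1 and 2, triangles for replicates 3 and 4 and a bar at the group mean. Each panel spans the same height on its axis; Fasn, Scd2, Elovl6 and Elovl5 have no overlap between the groups, while the circles and triangles of Scd1, Fads1 and Acaca stand apart in both groups.

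Libraries differed by replicate number as well as by treatment. Replicates 1 and 2 of both groups had Xist at rlog 7.47 to 7.65 and the Y-linked Ddx3y at 10.8, and replicates 3 and 4 had Xist at 12.7 to 12.8 and Ddx3y at 5.90 to 6.45. The pairs are called replicate sets here. Gm42418, a highly abundant RNA listed as Yam1, was at 19.20 to 20.67 in vehicle and 17.51 to 19.15 in SLIT2, with no overlap. By set, it was at 18.9 to 20.7 in replicates 1 and 2 and 17.5 to 19.5 in replicates 3 and 4. This sign of RNA composition moved with treatment and with the set, and its part in the results below was not tested. Macrophage markers were present (9 of 10 with a mean rlog of at least 4, the summed level 19.1 to 19.6 in both groups on the log2 scale), although Tyrobp was listed at 0. Within that list Mrc1 rose by 1.18 (adjusted p = 0.00125) and Fcgr1 by 1.165 (adjusted p = 0.00160), and Cd68 fell by 0.245 (adjusted p = 0.0183). Of 7 adipocyte markers only Fabp4, which macrophages also express, was above that mean, and Plin1, Cidec, Lep and Cfd were listed at 0. The summed level of 8 neutrophil markers was 11.2 to 11.5 in vehicle and 11.8 to 12.2 in SLIT2, nearly all of it Csf3r, with Mpo, Elane and Camp below 0 on the rlog scale; its part in the results was not tested. The same holds for the osteoclast marker Dcstamp, which fell by 1.4 (adjusted p = 0.00615) in a list of 7 whose 4 tested genes all had negative differences (summed level 9.19 to 9.92 in vehicle and 8.93 to 9.47 in SLIT2, Calcr listed at 0). It holds too for the stromal marker Col3a1, which rose by 0.67 (adjusted p = 0.0422; summed level of 7 stromal and endothelial markers 9.03 to 9.71 and 9.26 to 9.87). In bulk RNA, more cells that express a gene and more RNA per cell cannot be told apart.

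Neither gene of acetyl-CoA supply passed the test, and Acly passed with the replicate block. Acly, the citrate-cleaving enzyme (ENSMUSG00000020917, chromosome 11, 100476353 to 100528000 in GRCm38), was at rlog 12.28, 12.34, 12.06 and 12.08 in vehicle replicates 1 to 4 and at 12.58, 12.53, 12.36 and 12.33 in SLIT2 replicates 1 to 4. The SLIT2 library was the higher of each same-numbered pair, and replicates 1 and 2 were above 3 and 4 in both groups, so that SLIT2 replicate 4 fell just under vehicle replicate 2. The difference of 0.26 (SE 0.086) did not pass (adjusted p = 0.0895), and passed with the replicate block (0.00130) and with quantile normalization (0.0273), but not with averaged duplicates (0.0610). Replicates 1 and 2 gave 0.245, and replicates 3 and 4 gave 0.275. Acss2, which makes acetyl-CoA from acetate, ranged from 7.46 to 7.68 in vehicle and from 7.53 to 7.86 in SLIT2, where replicate 4 at 7.53 lay below 3 of the 4 vehicle libraries. Its difference of 0.15 (95% interval -0.067 to 0.36) did not pass with an adjusted p of 0.378, nor with the block (0.257). Acss2 shares exonic bases with genes on the opposite strand (395 with Gss, 335 with Acss2os and 197 with Ggt7), and no source used here gives the strand setting of the counting, so its value is uncertain to that extent.

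At the carboxylase step, Acaca (ENSMUSG00000020532, chromosome 11, 84129672 to 84401651) was at 10.03, 10.24, 9.67 and 9.66 in vehicle and at 10.50, 10.61, 9.92 and 9.82 in SLIT2, in replicate order. Every SLIT2 library exceeded its same-numbered vehicle library, yet SLIT2 replicates 3 and 4 lay below vehicle replicates 1 and 2. The difference of 0.31 (SE 0.21, 95% interval -0.18 to 0.80) did not pass (adjusted p = 0.414), and with the replicate block it did (SE 0.056, adjusted p = 0.00798), but not with averaged duplicates (0.113). Of the distinct stretches of 101 bases, the read length, in Acaca transcripts, 23.6% also occur in a transcript of another gene, chiefly the processed pseudogene Gm5182, so its value is uncertain to that extent. Fasn, Acly, Acss2, Elovl5, Fads1 and Fads2 share 0 such stretches with other genes.

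Fasn, the multi-domain enzyme that completes palmitate (ENSMUSG00000025153, chromosome 11, 120805846 to 120824547), showed the widest difference of the members. It was at 8.83, 8.18, 8.86 and 8.76 in vehicle and at 9.11, 9.60, 10.10 and 10.25 in SLIT2, in replicate order. All SLIT2 libraries were above all vehicle libraries, with vehicle replicate 2 the lowest and SLIT2 replicate 1 closest to the vehicle values. From 8.66 ± 0.32 in vehicle it rose to 9.77 ± 0.52 (SD, n = 4). The increase was 1.11 on the log2 scale (SE 0.26, limma adjusted p = 0.0286), or 2.15-fold (95% interval 1.42 to 3.28). This placed it 119th of the 11851 genes tested by size of increase. Replicates 1 and 2 gave 0.85 and replicates 3 and 4 gave 1.365, and the limma interaction test between them did not pass (0.515, 95% interval -0.17 to 1.2, adjusted p = 0.395). The call was lost without any 1 library other than SLIT2 replicate 1, with adjusted p between 0.0504 (vehicle replicate 3) and 0.0733 (SLIT2 replicate 3), as the difference ranged from 0.95 to 1.33. With duplicates averaged and the set as a block, the adjusted p was 0.0578.

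Among the elongases, Elovl6 rose and Elovl5 did not pass the test. Elovl6, which takes palmitate to stearate (ENSMUSG00000041220, chromosome 3, 129532355 to 129638495), was at 7.74, 7.85, 7.58 and 7.58 in vehicle and at 8.38, 8.41, 8.41 and 8.09 in SLIT2. The groups did not overlap, and SLIT2 replicate 4 stood below the other three. The difference of 0.64 (SE 0.10, adjusted p = 0.00458), 1.55-fold, passed without each library in turn (adjusted p 0.00275 to 0.0183) and with averaged duplicates (0.0402). Elovl5, which lengthens polyunsaturated chains (ENSMUSG00000032349, chromosome 9, 77917364 to 77984519), ranged from 11.58 to 11.63 in vehicle and from 11.68 to 11.70 in SLIT2. These narrow groups did not overlap, and the difference was 0.09 in either replicate set. It did not pass (SE 0.033, adjusted p = 0.123), and passed with the replicate block (adjusted p = 0.0352) but not with averaged duplicates (0.226). Quantile normalization gave a difference of 0.052 for Elovl5. The SD of Elovl5 was 0.021 in vehicle and 0.0096 in SLIT2 (n = 4).

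Of the stearoyl-CoA desaturases, Scd2 rose and Scd1 did not pass. Scd2 (ENSMUSG00000025203, chromosome 19, 44293674 to 44306864) was at 12.32, 12.72, 11.89 and 11.76 in vehicle and at 13.59, 13.53, 12.98 and 12.87 in SLIT2. Every SLIT2 library was above every vehicle library, and within each group replicates 1 and 2 were above 3 and 4. Its mean of 12.17 ± 0.44 rose to 13.24 ± 0.37 (SD, n = 4), by 1.07 (SE 0.25, limma adjusted p = 0.0252) or 2.10-fold (95% interval 1.42 to 3.11), with 1.04 in replicates 1 and 2 and 1.1 in replicates 3 and 4. With the replicate block the SE was 0.070 (adjusted p = 1.79e-04). In the model with no block, Scd2 no longer passed when vehicle replicate 1 (0.0511), 3 (0.0675) or 4 (0.0625) or SLIT2 replicate 1 (0.0664) or 2 (0.0732) was left out, as the difference ranged from 0.93 to 1.25.

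Scd1 (ENSMUSG00000037071, chromosome 19, 44394455 to 44407879), the main isoform of liver and fat, was at 8.88, 9.49, 8.02 and 7.90 in vehicle and at 9.86, 9.45, 8.66 and 8.57 in SLIT2. The groups overlapped widely, since SLIT2 replicates 3 and 4 lay below both of vehicle replicates 1 and 2, and SLIT2 replicate 2 was 0.04 below its same-numbered vehicle library. The difference of 0.56 (SE 0.42, 95% interval -0.40 to 1.52) did not pass (adjusted p = 0.462), and passed with the replicate block (0.0352) but not with averaged duplicates (0.0549). The gene passed in replicates 3 and 4 alone, where the difference was 0.655 (adjusted p = 0.00388), and not in replicates 1 and 2 alone (0.47, adjusted p = 0.169). The interaction test between the sets did not pass (0.185, 95% interval -0.44 to 0.81, adjusted p = 0.773).

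Because Scd1 and Scd2 are close paralogues lying 87590 bases apart on chromosome 19, their sequences bear on whether reads can be told apart. Their coding sequences in GENCODE M21 are 90.3% identical over 1065 aligned bases, with a longest identical run of 147 bases. The 90 coding bases with the most differences are shown, with capitals at the 30 bases that differ.
Scd1, coding bases 75 to 164: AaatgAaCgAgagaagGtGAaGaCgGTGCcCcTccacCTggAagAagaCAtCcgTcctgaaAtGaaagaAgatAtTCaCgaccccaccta
Scd2, coding bases 84 to 173: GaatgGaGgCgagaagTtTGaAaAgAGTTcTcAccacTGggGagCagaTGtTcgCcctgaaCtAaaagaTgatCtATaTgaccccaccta
Over whole transcripts, untranslated ends included, 2.54% of the stretches of 101 bases in Scd1 and 0.861% of those in Scd2 occur in another gene. Scd2 also holds a microRNA gene (Mir5114) on its own strand, with 61 exonic bases shared.

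Among the polyunsaturated fatty acid desaturases, neither passed the test, and only Fads2 passed with the replicate block. Fads2, the delta-6 desaturase that opens the pathway (ENSMUSG00000024665, chromosome 19, 10062765 to 10101746), was at 9.01, 9.48, 7.90 and 8.0 in vehicle and at 9.82, 9.54, 9.16 and 9.06 in SLIT2. Each SLIT2 library was above its same-numbered vehicle library, but vehicle replicate 2 was above SLIT2 replicates 3 and 4. The difference of 0.80 (SE 0.36, 95% interval -0.040 to 1.63) did not pass (adjusted p = 0.212), and passed with the block (0.0205) but not with averaged duplicates (0.129). It was 0.435 in replicates 1 and 2 (adjusted p = 0.107) and 1.16 in replicates 3 and 4 (adjusted p = 6.30e-04). The test of the difference between the sets gave 0.725 (95% interval 0.25 to 1.2, unadjusted p = 0.00805, adjusted p = 0.103), the only member with an unadjusted p under 0.05 in that test, which called 4.40% of all genes.

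Fads1, the delta-5 desaturase that forms arachidonate (ENSMUSG00000010663, chromosome 19, 10182888 to 10196877), was at 11.63, 11.57, 10.39 and 10.91 in vehicle and at 11.71, 11.61, 10.73 and 10.54 in SLIT2. The groups covered the same range, and in both the libraries of replicates 1 and 2 were above those of 3 and 4. Its difference of 0.02 (SE 0.36, 95% interval -0.80 to 0.85) passed neither without the block (adjusted p = 0.980) nor with it (0.889), where the 95% interval was -0.23 to 0.28. The sign was negative under quantile normalization and in replicates 3 and 4 alone (-0.015 in both). Without 1 library it ranged from -0.22 to 0.23.

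**Figure D2:**
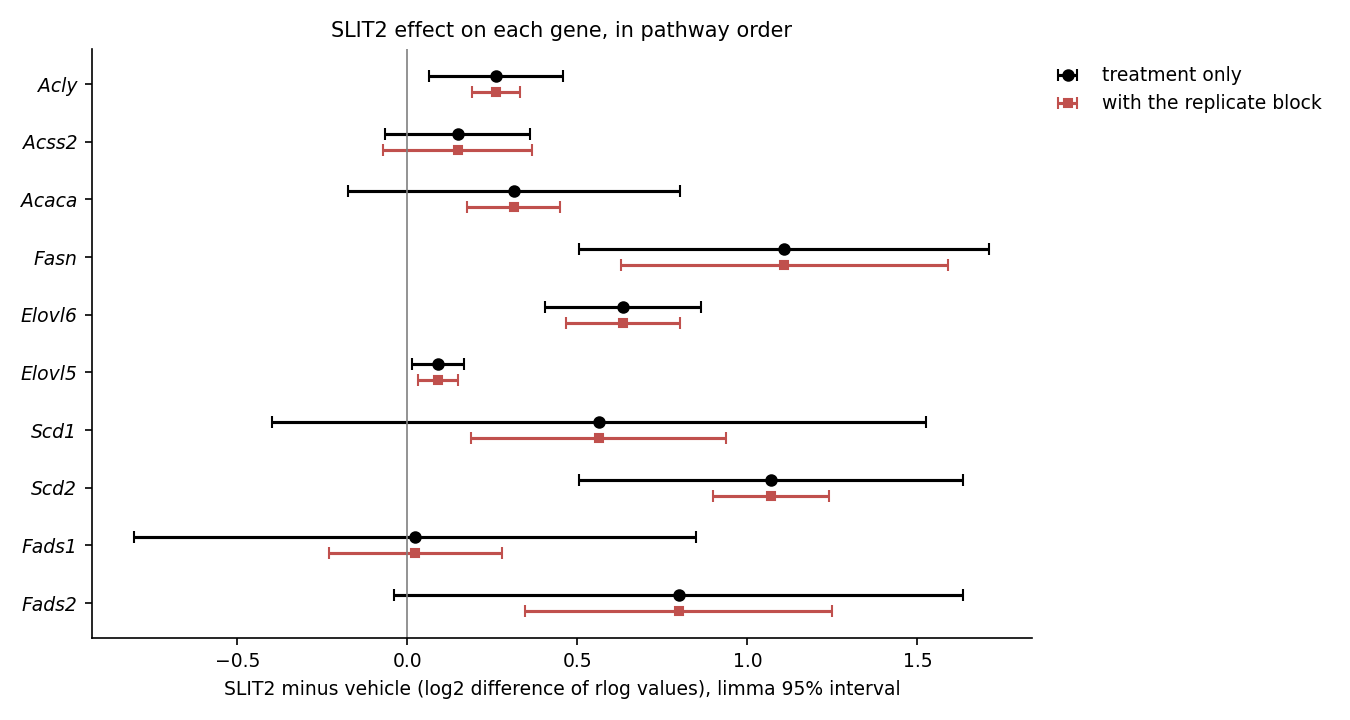
Log2 difference of SLIT2 minus vehicle for each gene in pathway order, with the 95% interval of limma, for the model with treatment only (black circles) and with the replicate block (red squares). The block leaves each difference as it is and narrows the interval for 9 of 10 genes, from -0.40 to 1.52 to 0.19 to 0.94 for Scd1, while the interval of Fads1 spans 0 in both.

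Paralogue pairs among the members were compared within each library, which asks whether the genes of a pair changed by different amounts and says nothing of their relative level. There were 3 such contrasts, tested by a two-sided exact permutation test over 70 regroupings, whose smallest p is 0.0286, and adjusted over the 3. Elovl6 minus Elovl5 rose by 0.545 (0.51 and 0.58 in the sets), with no overlap between the groups (exact p = 0.0286, adjusted p = 0.0429). Fads2 minus Fads1 rose by 0.775 with no overlap (exact p = 0.0286, adjusted p = 0.0429), although vehicle replicate 2 at -2.09 lay just below SLIT2 replicate 2 at -2.07 and the sets gave 0.375 and 1.175. Scd2 minus Scd1 was higher by 0.508 on average (0.57 and 0.445 in the sets), the groups overlapped, and the difference did not pass (exact p = 0.0857, adjusted p = 0.0857). That test leaves out the replicate number. Within same-numbered pairs, Scd2 minus Scd1 was higher in SLIT2 by 0.29, 0.85, 0.45 and 0.44, and all 4 pairs were positive for the other contrasts too. An exact paired test over 4 pairs gave p = 0.125 for each, the smallest it allows, so it cannot settle whether Scd1 and Scd2 responded differently.

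**Figure D3:**
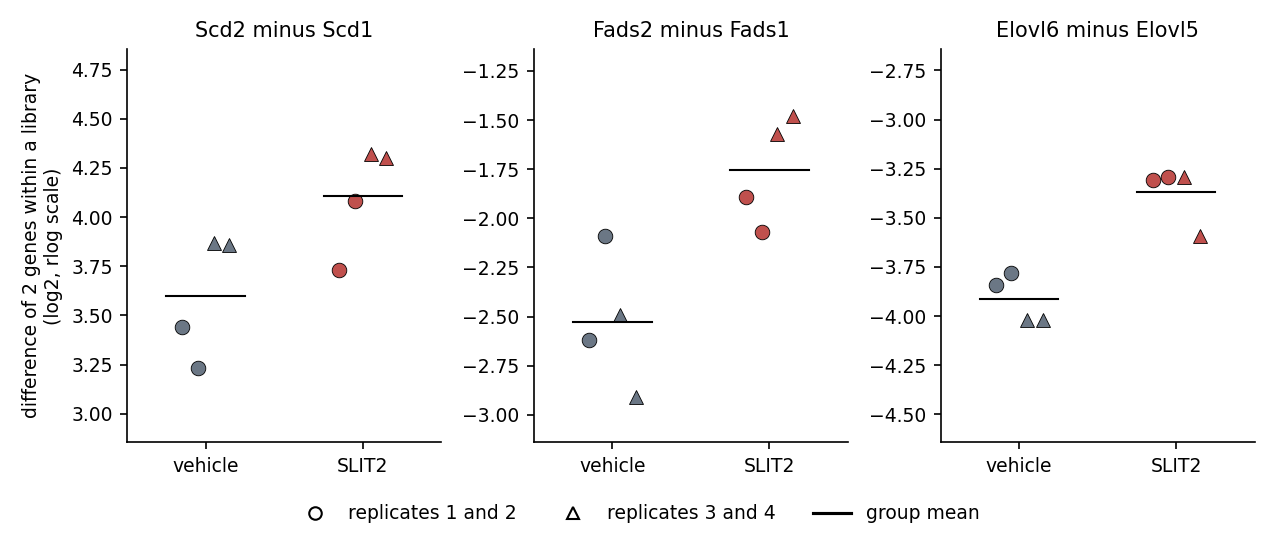
Difference of 2 genes within each library (log2, rlog scale, not corrected for gene length) for the 3 pairs, vehicle in grey and SLIT2 in red, circles for replicates 1 and 2, triangles for replicates 3 and 4, bars at group means. Elovl6 minus Elovl5 runs from -4.02 to -3.78 in vehicle and from -3.59 to -3.29 in SLIT2, whereas Scd2 minus Scd1 overlaps between the groups.

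How far the replicate sets and the treatment each went with a gene varied among the members. For Elovl5, Elovl6 and Fasn, the SLIT2 comparison took 91.3%, 86.6% and 68.8% of the sum of squares over the 8 libraries, and for Scd2 nearly all that the set (27.0%) and duplicates (2.94%) left. For Fads1, Scd1, Acaca and Fads2 the replicate set took 92.2%, 73.4%, 72.6% and 50.7%, more than the treatment. Acss2 was set apart by its spread within duplicates, 46.6% of its total. In vehicle cells, Fads2 was lower by 1.295 in replicates 3 and 4 than in 1 and 2, Scd1 by 1.225, Fads1 by 0.95 and Scd2 by 0.695. Fasn was the one member higher in replicates 3 and 4, by 0.305 in vehicle and 0.82 in SLIT2. What the sets share beyond the levels of Xist and Ddx3y is not given in the labels, so sex, animal and day cannot be told apart, and no test of the set was made.

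**Figure D4:**
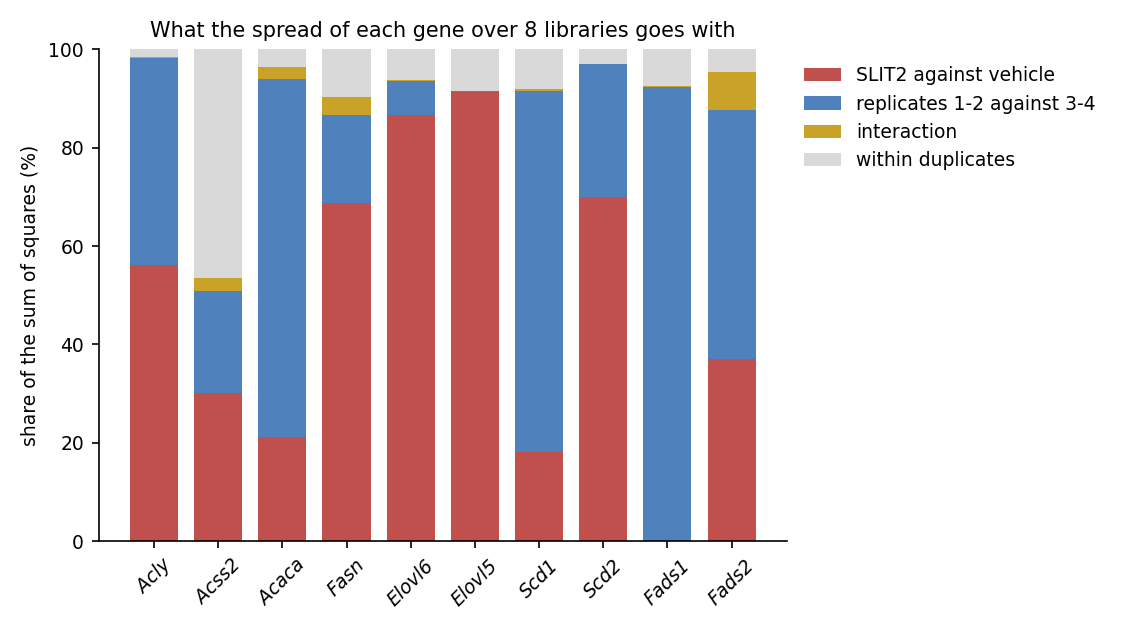
Share of each gene's sum of squares over the 8 libraries (in percent, bars from 0) that goes with SLIT2 against vehicle, with replicates 1 and 2 against 3 and 4, with their interaction and with the spread within duplicates. Red takes most of the bar for Elovl5 and Elovl6 (91.3% and 86.6%), and blue for Fads1 (92.2%).

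Levels were set side by side only after dividing by length, as rlog minus log2 of the longest coding transcript in kilobases. In vehicle cells, Elovl5 (10.1), Acly (10.0), Scd2 (9.72) and Fads1 (9.33) were the most abundant, and the ranges of neighbours in this order overlapped. Fads2 (6.94), Acaca (6.65), Scd1 (6.30) and Acss2 (6.06) followed, again with overlapping ranges, and Fasn (5.33) and Elovl6 (5.11) overlapped at the bottom. Between Fads1 and Fads2 there was no overlap, with the lowest Fads1 library at 8.60 and the highest Fads2 library at 7.82, nor between Acss2 (lowest 5.91) and Fasn (highest 5.53). With SLIT2, Scd2 averaged 10.8, Acly 10.3, Elovl5 10.2 and Fasn 6.44. Scd2 was the more abundant stearoyl-CoA desaturase in all 8 libraries, at 9.31 to 11.1 per kilobase against 5.63 to 7.59 for Scd1.

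Other genes of the pathway were taken from 9 lists of related steps, in which 111 of 129 genes listed were tested, 23 rose and 10 fell. In the supply of citrate and NADPH, 1 of 12 rose and 3 fell, with a median difference of -0.20. Slc25a1, the mitochondrial citrate exporter upstream of Acly, rose by 0.24 (SE 0.042, adjusted p = 0.00756). Genes that yield NADPH, the reductant of Fasn, included Me1 (malic enzyme), which fell by 0.40 (SE 0.092, adjusted p = 0.0239), and Pgd of the pentose phosphate pathway, which fell by 0.36 (adjusted p = 0.0431). Taldo1 of the same pathway fell by 0.34 (adjusted p = 0.00918). Me1 no longer passed without vehicle replicate 1 or 2 or SLIT2 replicate 1, 2 or 4 (adjusted p 0.0594 to 0.0688), and Pgd without any 1 library but vehicle replicate 3 (0.0642 to 0.106).

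Among regulators of the carboxylase, 1 of 9 tested rose and 0 fell. Stk11, the kinase upstream of AMPK, rose by 0.17 (adjusted p = 0.0331), a call lost without any 1 library but vehicle replicate 3 (0.0637 to 0.0874) and with quantile normalization (0.177). Acacb, the mitochondrial carboxylase isoform, lay below the filter, averaging 2.48 in vehicle and 2.37 in SLIT2, so no test was made. In the elongation cycle that Elovl enzymes share, 3 of 8 tested genes rose and 0 fell. They were Elovl1, for very long saturated chains, by 0.24 (adjusted p = 0.00939), the ketoacyl reductase Hsd17b12 by 0.21 (adjusted p = 0.00644, 0.0718 with quantile normalization) and the dehydratase Hacd3, listed as Ptplad1, by 0.20 (adjusted p = 0.0104).

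Other desaturases and electron donors gave 2 genes higher and 1 lower of 7 tested. Fads3, the third gene of the Fads cluster on chromosome 19, was at 7.43, 7.34, 7.62 and 7.44 in vehicle and at 8.35, 8.39, 9.13 and 9.04 in SLIT2. No library overlapped, and replicates 3 and 4 were the higher SLIT2 libraries. Fads3 rose by 1.27 (SE 0.19, adjusted p = 0.00354), more in replicates 3 and 4 (1.555) than in 1 and 2 (0.985; interaction adjusted p = 0.0373). Cyb5b, a cytochrome b5, rose by 0.35 (adjusted p = 0.00112), and Degs1, which desaturates dihydroceramide, fell by 0.40 (adjusted p = 0.00365). Scd3 and Scd4 had mean rlog values below 4 and were not tested. Of 13 acyl-CoA synthetases, thioesterases and carriers tested, 1 rose and 2 fell. Acsl3, which activates fatty acids, rose by 0.43 (adjusted p = 0.0291), a call lost without vehicle replicate 1, 3 or 4 or SLIT2 replicate 1, 2 or 3 (0.0535 to 0.0780). The thioesterase genes Acot2 and Acot1, which are paralogues and may share reads, fell by 0.64 (adjusted p = 0.00223) and 0.52 (adjusted p = 0.00553).

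**Figure D5:**
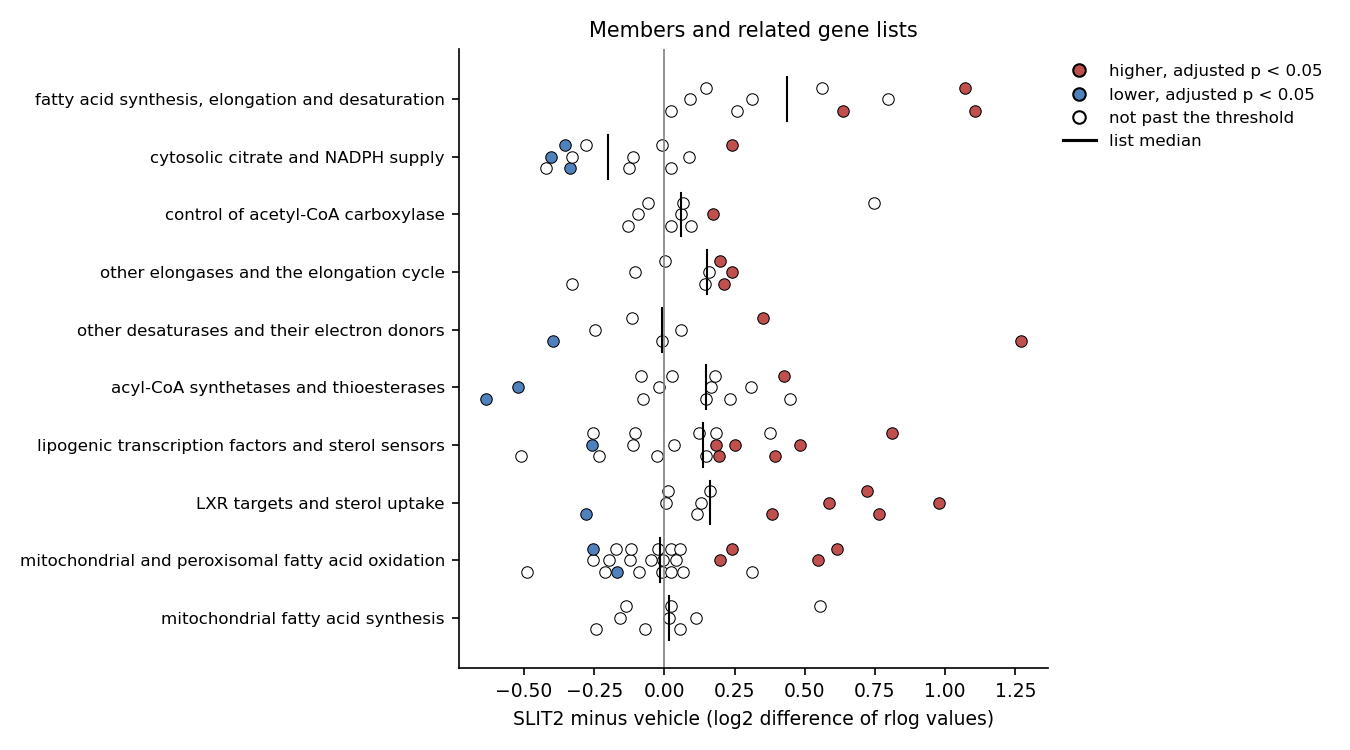
Log2 difference of SLIT2 minus vehicle for each tested gene of the members (top row) and of the 9 related lists, red where higher and blue where lower at an adjusted p under 0.05, white otherwise, with a bar at the list median. The members have a median of 0.44, against -0.20 for citrate and NADPH supply and -0.015 for fatty acid oxidation; 1 desaturase, Fads3, lies at 1.27.

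Of 18 lipogenic transcription factors and sterol sensors tested, 6 rose and 1 fell. Srebf1, which encodes the lipogenic SREBP-1, was at 10.62, 10.62, 10.39 and 10.36 in vehicle and at 11.22, 11.14, 10.49 and 10.64 in SLIT2. SLIT2 replicates 1 and 2 were well above vehicle, replicate 4 was just above the highest vehicle library, and replicate 3 lay within the vehicle range. Its difference of 0.38 (SE 0.17) did not pass (adjusted p = 0.206; 0.0173 with the replicate block, 0.150 with averaged duplicates), and it was larger in replicates 1 and 2 (0.56) than in 3 and 4 (0.19; interaction adjusted p = 0.0349). Srebf2, which encodes the cholesterol-linked SREBP-2, rose by 0.48 (SE 0.075, adjusted p = 0.00416), by 0.63 and 0.335 in the sets (interaction adjusted p = 0.0349). Insig1, the sterol-sensing retention protein of SREBPs and itself an SREBP target, rose by 0.81 (adjusted p = 2.37e-04). Usf1, an E-box factor of the Fasn promoter, rose by 0.39 (adjusted p = 0.00129), although the Fasn window shown above holds no CACGTG. Mbtps2, a protease of SREBP processing, fell by 0.26 (adjusted p = 0.00374). The other three that rose, named after their values were seen, were Mlx, partner of the glucose-sensing factor ChREBP (0.25, adjusted p = 0.0401), Nr1h2, which encodes LXR beta (0.195, adjusted p = 0.0422), and the NF-Y subunit gene Nfyc (0.18, adjusted p = 0.0436). Each kept its call in only 1 of the 8 fits that left out a library: Mlx without vehicle replicate 2, Nr1h2 without vehicle replicate 1 and Nfyc without SLIT2 replicate 3 (others 0.0604 to 0.119). Nr1h2 and Nfyc were also not called with quantile normalization (0.0584 and 0.0672). Nr1h3, which encodes LXR alpha, had a difference of -0.51 with no overlap between the groups (adjusted p = 0.0788; 0.00490 with the block, 0.0947 with averaged duplicates).

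In the list of LXR targets and sterol uptake, 5 of 11 rose and 1 fell. Sqle rose by 0.77 (adjusted p = 5.48e-04), Stard4 by 0.72 (adjusted p = 5.58e-04) and Hmgcs1 by 0.59 (adjusted p = 0.00529), all of them genes of sterol synthesis and transport, which SREBP-2 is known to drive. Mylip, an LXR target named after its values were seen, fell by 0.28 (adjusted p = 0.0335; 0.0753 to 0.0861 without vehicle replicate 1 or 2 or SLIT2 replicate 1, 3 or 4). Fatty acid oxidation had 4 of 24 higher and 2 lower, with a median of -0.015. Acaa1a, a peroxisomal thiolase, rose by 0.62 (adjusted p = 9.73e-04), the nuclear receptor gene Ppard by 0.55 (adjusted p = 0.00338) and Eci2 by 0.24 (adjusted p = 0.0350), while Acads, a short-chain dehydrogenase, fell by 0.25 (adjusted p = 0.0334). Acadl, a long-chain dehydrogenase named after its values were seen, fell by 0.17 (adjusted p = 0.0480). Of the fits that left out 1 library, Eci2 passed only without SLIT2 replicate 4 (others 0.0676 to 0.0899), Acads only without vehicle replicate 2 or SLIT2 replicate 4 (others 0.0549 to 0.0928), and Acadl in none (0.0651 to 0.124). Acads was also not called with median-centred libraries (0.0503) or quantile normalization (0.0505). Cpt1a, the entry step of mitochondrial oxidation that malonyl-CoA inhibits, had a difference of -0.49 with no overlap (adjusted p = 0.0557; 0.0214 with the block, 0.167 with averaged duplicates), and passed without vehicle replicate 3 (0.0424) or 4 (0.0351) and with quantile normalization (0.0292). Its difference was -0.76 in replicates 1 and 2 and -0.215 in 3 and 4 (interaction adjusted p = 0.00706). In mitochondrial fatty acid synthesis, a separate pathway that serves lipoate formation, 0 of 9 tested genes passed limma with or without the block, and Cbr4 had the smallest p (difference -0.16, adjusted p = 0.164).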

How the data were processed

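Total RNA of 8 macrophage libraries was sequenced as paired-end reads of 101 bases from a stranded mRNA kit, per the labels' protocols. The tools named in the submitters' processing notes are DESeq2, Salmon, STAR, Picard 2.23.8, SAMtools 1.7 and FastQC 0.11.9, and the builds GRCm38 and mm10, with their roles not given in the sources used here. The deposited values are rlog values on a log2 scale, per the file headers and name: corrected for library size and shrunk towards each gene's mean, so differences of low genes are understated. No counts were given, so depth is unknown and no value has a counting interval.

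Of 41444 genes, the 11851 whose mean rlog was 4 or more entered limma 3.58.1 under R 4.3.3 (eBayes with a mean-variance trend; treatment only; two-sided; Benjamini-Hochberg; threshold 0.05). Deviations from the group mean correlated between same-numbered libraries (0.637, 0.671, 0.753 and 0.587, over genes). No correlation between libraries of different numbers was computed, so these values cannot tell pairing by number from the split between the replicate sets. The replicate numbers, which come from the labels, were used as a block by assumption, and the blocked value is given where it changes a call. Symbols were matched by gene identifier to GENCODE M21 (41157 matched), which also gave coordinates and transcripts; promoters came from RefSeq. Contrasts used SciPy 1.17.1 and figures matplotlib 3.10.9. The fitting steps were tested on simulated data. Alternatives were other filters, variance priors, scalings, weights and blocks, averaged duplicates, each replicate set alone and leaving out each library.

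The members and lists were chosen with earlier results of these data known. Named genes were, by rule, all members, up to 4 genes per other list with the widest difference among those called (or the smallest p), and Srebf1, Srebf2, Nr1h3, Insig1, Cpt1a and Acacb. Some other genes of the lists are counted but not reported here by name. Marker genes, Xist, Ddx3y and Yam1 served to describe the libraries.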

Additional observations from a re-analysis of the deposited data

Results flagged for a closer look

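Of 108 groups of 4 libraries examined, 6 had a library far from the rest, its gap to the nearest one, as a share of the group's range, being above Dixon's 95% critical value, and chance flags about 1 in 20 groups. SLIT2 replicate 4 was the low one for Elovl6 (0.906), Elovl6 minus Elovl5 (0.933, which rests on the same Elovl6 value), Acss2 (0.879) and Slc25a1 (0.833). Without it the difference of Elovl6 was 0.71 and that of Acss2 0.22. Vehicle replicate 2 was the low one for Fasn (0.853), whose difference without it was 0.95, and vehicle replicate 1 for Prkaa1 (0.956).

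Among the genes named above, cell type markers aside, 5 effects differed by the limma interaction test between the replicate sets, as replicates 3 and 4 minus replicates 1 and 2. Fads3 (0.57) had the larger increase in replicates 3 and 4. Srebf1 (-0.37), Srebf2 (-0.295) and Acaa1a (-0.2; adjusted p = 0.0472) had the larger increase in replicates 1 and 2, and Cpt1a (0.545) the larger decrease there. The test rests on the spread within duplicates.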

How the results depend on the processing

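Of the members, Elovl6 kept its direction and call under all alternatives. Counts past the threshold were 1581 for all genes, 3 for the members and 33 for the 9 related lists. They were 3912, 8 and 57 with the replicate block, 4652, 8 and 63 with the set as a block, 3962, 5 and 58 in replicates 1 and 2 alone, and 2880, 7 and 45 in replicates 3 and 4 alone. With averaged duplicates they were 688, 2 and 10, and without 1 library 1021 to 1254, 1 to 2 and 20 to 26; the lowest were without SLIT2 replicate 2 (1021) and SLIT2 replicate 1 (20). The members' count was 1 without vehicle replicate 1, 3 or 4 or SLIT2 replicate 2. Adjusted p-values with the replicate block and with the set block were 0.00130 and 6.19e-05 for Acly, 0.00798 and 0.00437 for Acaca, 0.0352 and 0.0125 for Elovl5, 0.0352 and 0.0109 for Scd1, and 0.0205 and 0.00429 for Fads2; the pairing changed no other member's call. Paired, each of the 3 contrasts had an exact p of 0.125, the smallest that 4 pairs allow. In replicates 1 and 2 alone Acly passed at 0.00343 and Acaca at 0.0116. In replicates 3 and 4 alone Acly passed at 0.00310, Acaca at 0.0410, Scd1 at 0.00388 and Fads2 at 6.30e-04. Quantile normalization called Acly (0.0273), and averaged duplicates lost Fasn (0.0578). The 5 calls gained with the block (Acly 0.0610, Acaca 0.113, Elovl5 0.226, Scd1 0.0549 and Fads2 0.129) did not pass there either. Averaging leaves 4 values per gene and little to estimate their spread from, so a missed call there does not show that a gene was unchanged. Without 1 library, adjusted p ran from 0.0718 to 0.203 for Acly, 0.126 to 0.601 for Acss2, 0.255 to 0.676 for Acaca, 0.00982 to 0.0733 for Fasn, 0.00275 to 0.0183 for Elovl6, 0.169 to 0.248 for Elovl5, 0.229 to 0.703 for Scd1, 0.0140 to 0.0732 for Scd2, 0.749 to 0.956 for Fads1 and 0.0731 to 0.387 for Fads2. Fads1 changed sign under quantile normalization (0.986), in replicates 3 and 4 alone (0.957) and without vehicle replicate 3 (0.749) or 4 (0.956) or SLIT2 replicate 1 (0.838) or 2 (0.885). Fads2 minus Fads1 was 0.375 and 1.175 in the sets; without 1 library that contrast was 0.648 to 0.921, Scd2 minus Scd1 0.384 to 0.633 and Elovl6 minus Elovl5 0.51 to 0.618. Differences between the sets were called for 521 genes, and for 116 without a variance trend, with 0 members in both (1 at an unadjusted p under 0.05 in the former). Of the 33 called genes of the lists, 25 lost the call with averaged duplicates (those that kept it included Degs1, Cyb5b, Acot2, Insig1, Sqle, Hmgcs1 and Acaa1a) and 13 without at least 1 library. The causes were not tested.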

Other observations

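Some related genes outside the naming rule, chosen after their values were seen, did not pass without the replicate block and passed with it. Prkaa1, a catalytic subunit of the kinase AMPK that inactivates acetyl-CoA carboxylase, was at 7.92, 8.79, 8.79 and 8.83 in vehicle and at 9.48, 9.02, 9.74 and 9.08 in SLIT2, with no overlap. Its difference was 0.75 (adjusted p = 0.0846, and 0.0464 with the block). Dbi, the acyl-CoA binding protein gene, had a difference of 0.45 with no overlap (adjusted p = 0.0708, and 2.62e-04 with the block), and Hsd17b4 of peroxisomal oxidation one of 0.31 with no overlap (adjusted p = 0.0721, and 0.00145 with the block). With averaged duplicates Dbi passed (0.0415), and Prkaa1 (0.0545) and Hsd17b4 (0.0724) did not.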
